A study of Mus musculus with 4 samples.

Results

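The control libraries of the study's 2 experiments on the Tie2 ligand angiopoietin-2 (Ang2) were compared with each other. Library mIgG1 came from isotype-treated mice of the blockade experiment and library Ctrl from single transgenic mice of the overexpression experiment, and neither had a changed Ang2. Both held cells of the spinal cord (SC) of mice with experimental autoimmune encephalomyelitis (EAE), an immune attack on myelin, sorted as equal numbers of viable CD45+ leukocytes and CD31+ endothelial cells (ECs) and captured in droplets with the 10x Chromium 3′ v2 chemistry. The members were droplet barcodes with at least 2000 unique molecular identifiers (UMIs, 1 for each captured transcript) of which less than 10% were mitochondrial. A barcode was endothelial with 5 or more UMIs of *Cldn5*, *Cdh5*, *Egfl7*, and *Esam* together and at most 2 of *Ptprc*, *Laptm5*, and *Coro1a*. It was myeloid with 10 or more UMIs of *Tyrobp*, *Fcer1g*, and *Ctss* and at most 2 of the endothelial genes, and a T cell with 3 or more of *Cd3e*, *Cd3g*, and *Lat* and at most 2 of *Tyrobp*. This gave 12121 members, 6016 in mIgG1 and 6105 in Ctrl, of 23890 such barcodes in all 4 libraries. The endothelial class held 3035 mIgG1 and 3639 Ctrl barcodes, the myeloid class 2646 and 2281, and the T class 340 and 191.

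The mIgG1 mice were wild-type C57Bl/6JOlaHsd females aged 15 weeks, immunized with 200 µg of MOG peptide in complete Freund's adjuvant, given 2 doses of 400 ng of pertussis toxin, and treated from the day of immunization with mouse IgG1 isotype antibody at 20 to 25 mg/kg. Their cells were taken at 14 days post immunization (dpi). The Ctrl mice were littermates that carried *VE-cadherin-tTA* or *Tet-OS-Ang2* alone, so that none held both the endothelial driver and the Ang2 transgene. The labels give their strain as C57Bl/6JCrl and the methods give the lines' background as C57BL/6J. The Ctrl mice were 12 to 14 weeks old and were immunized with the same 200 µg of peptide. They received 2 doses of 200 ng of pertussis toxin and no antibody, and were taken at 12 dpi. Their dams had been fed doxycycline until birth. The treated libraries of the same experiments, Ang2 Ab (Ang2-blocking antibody, otherwise as mIgG1) and *EC-Ang2* (both transgenes, otherwise as Ctrl), are given beside them as description. Substrain, transgene, antibody, toxin dose, time, age, and library all differed together between mIgG1 and Ctrl, so that these cannot be told apart, and the number of mice behind a library is not given in the sources used here. With 1 library per condition there was no replicate check and no test.

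In EAE, autoreactive T cells enter the SC through inflamed venules, whose ECs display adhesion molecules such as VCAM-1 and ICAM-1 and the chemokine-transporting receptor ACKR1. T cell cytokines, above all IFN-γ and IL-17, act on ECs, on the resident microglia, and on monocytes recruited from blood, which turn into macrophages, take up myelin lipid, and later clear it. Interferons switch on guanylate-binding proteins, immunity-related GTPases, and the MHC class I pathway, whereas IL-6–type cytokines and glucocorticoids raise acute phase genes and metallothioneins.

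The files held 66631583 UMIs for mIgG1 and 52084739 for Ctrl. Median UMIs per barcode were 4828 against 4320 in ECs, 7519 against 6674 in the myeloid class, and 3884.5 against 4562 in T cells. Most barcodes of a class held independent markers of that class. After each barcode was thinned at random to 2000 UMIs, 2 or more UMIs of *Pecam1*, *Flt1*, *Kdr*, *Tek*, *Ptprb*, and *Slco1a4* were present in 98.2% of mIgG1 and 98.9% of Ctrl ECs. Likewise, 2 or more of 6 myeloid markers were present in 97.8% and 96.4% of myeloid barcodes, and 2 or more of *Cd3d*, *Cd2*, *Lck*, and *Cd5* in 93.8% and 94.2% of T cells. Few barcodes lay at the limits of the classes, with 4 mIgG1 and 7 Ctrl ECs at an endothelial sum of 5 and 14 and 8 barcodes left out at a sum of 4. Among the barcodes that fell in a class, the libraries shared 45 (40 to 58 over all library pairs). Free RNA, shed by lysed cells into the suspension and captured in each droplet, was estimated from genes that a class does not express. By this estimate it made up 6.74% of endothelial UMIs in mIgG1 and 4.53% in Ctrl, 3.97% and 4.20% of myeloid UMIs, and 9.38% and 8.51% of T cell UMIs. The estimate was too high for some genes. In Ctrl ECs it came to 183% of the *Cd74* and 199% of the *Lyz2* UMIs, against 96.2% and 94.0% in mIgG1 ECs. Summed levels of the 6 myeloid markers in the endothelial class were 1092 UMIs per 1000000 (CPM) in mIgG1 and 475 CPM in Ctrl, with *Itgam* at 4.25 and 4.72 CPM. In the T class the same markers reached 785 and 269 CPM. At 2000 UMIs, 2 or more UMIs of these 6 markers were present in 51.4% of mIgG1 and 12.5% of Ctrl ECs. In T cells the shares were 47.1% in mIgG1 and 7.33% in Ctrl, so that the classes were not free of myeloid RNA. Ribosomal protein genes took a median of 12.2% against 10.3% of the UMIs in ECs, 16.3% against 14.6% in the myeloid class, and 28.2% against 23.2% in T cells, and mitochondrial genes took 1.91% against 1.99%, 1.83% against 1.61%, and 2.1% against 2.04%. The part of free RNA and of these quality measures in the differences below was tested only where a value is given.

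Levels below are UMIs summed over a class in 1 library, in CPM, and ratios are log2 of mIgG1 over Ctrl with a 95% exact Poisson interval. The interval covers the counting error of the summed UMIs alone and leaves out variation among barcodes, mice, and libraries. It is thus too narrow for genes whose UMIs lie in few barcodes. A ratio in parentheses after a level is this log2 ratio, followed by its interval where one is given. A gene was counted as higher or lower when its levels differed by 1.5-fold or more, it had a UMI in 10% or more of the class's barcodes of 1 library, and it had 50 or more UMIs in both together. This is a rule of size and no test. By it, 243 of 6095 genes (3.99%) were higher and 178 (2.92%) lower in mIgG1 ECs, a total of 6.91%. In the myeloid class 385 of 5946 (6.47%) were higher and 1040 (17.5%) lower, in all 24.0%, and in T cells 411 of 4816 (8.53%) were higher and 460 (9.55%) lower, in all 18.1%. The median log2 ratio was −0.03 in ECs, −0.04 in T cells, and −0.14 in the myeloid class. Relative to that median gene, the myeloid counts were 576 higher and 784 lower, so that the excess of lower genes shrank. At 2-fold, 72 genes were higher and 42 lower in ECs, 134 and 485 in the myeloid class, and 118 and 93 in T cells.

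The distance between the controls was set against that between each control and its treated library at equal numbers of barcodes, each thinned to 2000 UMIs. Of the genes then measured, 6.41% of endothelial genes passed the rule between mIgG1 and Ctrl, 4.42% between Ang2 Ab and mIgG1, and 9.72% between *EC-Ang2* and Ctrl. In the myeloid class the shares were 26.5%, 6.82%, and 19.7%, and in T cells 20.6%, 12.6%, and 11.6%. By these shares, the controls lay further apart than either treated library from its control in the myeloid and T classes. In ECs *EC-Ang2* and Ctrl differed in more genes than the controls did. The median absolute log2 ratio in ECs was nearly equal, however, at 0.183 between mIgG1 and Ctrl and 0.182 between *EC-Ang2* and Ctrl. These contrasts share libraries, and the differences between the shares were not tested.

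**Figure D1:**
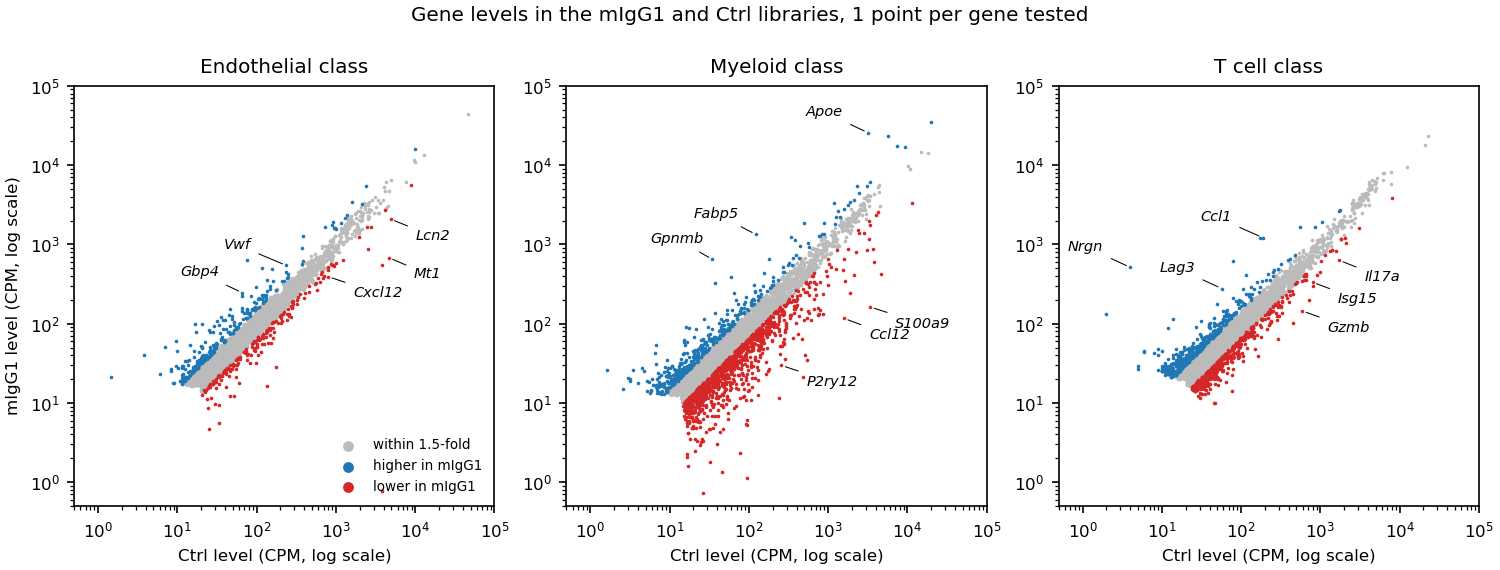
Level of each gene that met the detection limits in the Ctrl library (x axis, CPM, log scale) and in the mIgG1 library (y axis, CPM, log scale) for the endothelial, myeloid, and T cell classes, with genes that differ by 1.5-fold or more in colour. The cloud is narrow in ECs, where 6.91% of genes are coloured, and spreads downward in the myeloid class, where 17.5% of genes are lower in mIgG1.

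In ECs, interferon-induced genes and the MHC class I pathway were higher in mIgG1. Of 24 measured interferon-induced genes, 22 had an interval above 0 and none below it, with a median of 0.65, and 11 of the 21 that met the detection limits were counted as higher (3.99% of all genes). All 17 measured genes of the MHC class I pathway had an interval above 0, with a median of 0.73, and 9 of 16 were counted as higher. *Gbp4*, a guanylate-binding protein that acts against intracellular microbes, stood at 244 CPM in mIgG1 and 66.3 CPM in Ctrl (1.88, 1.79 to 1.97), with 127 CPM in Ang2 Ab and 225 CPM in *EC-Ang2*. *Gbp5*, of the same family, had 154 CPM in mIgG1 and 46.2 CPM in Ctrl (1.74, 1.63 to 1.85), and *Gbp2* had 487 CPM in mIgG1 and 156 CPM in Ctrl (1.65, 1.59 to 1.71). For these 3 genes mIgG1 and *EC-Ang2* were the upper libraries, Ang2 Ab lay between, and Ctrl was lowest.

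The GTPases *Igtp* (225 CPM in mIgG1 and 84.8 CPM in Ctrl, ratio 1.41) and *Iigp1* (351 CPM in mIgG1 and 134 CPM in Ctrl, ratio 1.39) and the chemokine *Cxcl10* (1.17), which draws CXCR3-bearing T cells, showed the same direction. *Cxcl9*, a chemokine induced by IFN-γ, had 91.6 CPM in mIgG1 and 13.5 CPM in Ctrl (2.77, 2.58 to 2.96), but too few barcodes held it for it to be counted. *Ifit1* and *Isg15*, known best as targets of type I interferon, differed less than the genes above, with ratios of 0.16 and 0.37. Of the class I genes, *Tap1*, which carries peptides into the endoplasmic reticulum, had 159 CPM in mIgG1 and 65.3 CPM in Ctrl (1.28, 1.19 to 1.38), the immunoproteasome subunit *Psmb9* had 203 CPM in mIgG1 and 103 CPM in Ctrl (0.98), and the heavy chain *H2-K1* had 1607 CPM in mIgG1 and 969.5 CPM in Ctrl (0.73). The light chain *B2m* differed least of those named, at 5338 CPM in mIgG1 and 4079.6 CPM in Ctrl (0.39). *H2-Q6* (1.58) and *H2-Q7* (1.56) were also counted, but they are near-identical copies between which reads could be split. Free RNA could give at most 11.6% of the UMIs of *Gbp2*, *Gbp4*, *Gbp5*, or *Tap1* in either library.

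To show what these genes share upstream, the 250 bases before the RefSeq start of *Gbp2*, *Gbp5*, and *Igtp* (GRCm38.p6, + strand) are printed, with matches to the interferon-stimulated response element (ISRE, searched on both strands as GAAA, any 2 bases NN, and GAAA) and the IFN-γ–activated GAS element (TTCNNNGAA) in capitals. They lie at chr3:142620413-142620662, chr3:142496684-142496933, and chr11:58199306-58199555, upstream of the first exon.
Gbp2: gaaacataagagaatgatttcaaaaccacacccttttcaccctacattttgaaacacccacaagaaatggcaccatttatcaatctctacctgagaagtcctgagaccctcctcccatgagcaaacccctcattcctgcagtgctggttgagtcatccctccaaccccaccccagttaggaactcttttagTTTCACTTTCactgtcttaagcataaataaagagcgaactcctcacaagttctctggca
Gbp5: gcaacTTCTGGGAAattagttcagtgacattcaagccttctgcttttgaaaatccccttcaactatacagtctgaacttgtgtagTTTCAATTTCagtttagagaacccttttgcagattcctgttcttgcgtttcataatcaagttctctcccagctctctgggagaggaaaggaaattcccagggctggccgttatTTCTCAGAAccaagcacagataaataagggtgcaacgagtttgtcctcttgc
Igtp: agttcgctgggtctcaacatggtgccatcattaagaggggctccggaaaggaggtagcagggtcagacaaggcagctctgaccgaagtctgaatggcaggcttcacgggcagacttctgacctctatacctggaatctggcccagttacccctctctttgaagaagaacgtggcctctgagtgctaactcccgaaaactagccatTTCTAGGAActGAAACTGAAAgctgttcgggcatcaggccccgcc
The ISRE letters began 59 bases before the start in *Gbp2*, 165 in *Gbp5*, and 34 in *Igtp*. GAS letters lay 245 and 52 bases before the start in *Gbp5* and 45 in *Igtp*, with none in this window of *Gbp2*, and no match overlapped another. Of the 25 interferon-induced genes, 20 matched the promoter table, of which 14 (70.0%) held an ISRE match and 8 (40.0%) a GAS match, against 3.04% and 7.18% of all 27025 promoters of that length. Of the 17 MHC class I pathway genes, 15 matched, of which 3 (20%) held the ISRE letters and 1 (6.67%) the GAS letters. A match of letters is not a shown binding site. The first list was chosen as interferon-induced genes, so that its excess of these letters does not bear on the difference between mIgG1 and Ctrl.

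Of the MHC class II genes, which myeloid cells express strongly, 5 of 5 that met the limits were counted as higher in the endothelial class (3.99% of all genes). *Cd74*, the invariant chain, had 499 CPM in mIgG1 and 118 CPM in Ctrl (2.08), and free RNA could give 96.2% of these UMIs in mIgG1 and all of them in Ctrl. The same held for 8 of the 10 genes with the highest ratios, namely *Gpnmb* (3.89), *Fabp5* (3.43), *Lyz2* (3.10), *Chil3* (2.88), *Saa3* (2.65), *Spp1* (2.56), *Ccl5* (2.26), and *Ccl6* (2.20), for which it could give 64.1% to 131% of the mIgG1 UMIs. The remaining gene of the 10, *Fscn1*, which encodes an actin-bundling protein, stood at 45.6 CPM in mIgG1 and 10 CPM in Ctrl (2.19), and free RNA could give 14.8% and 27.0% of its UMIs. Over all counted endothelial genes, free RNA could give 50% or more of the UMIs in either library for 30 of 243 higher and 10 of 178 lower genes, against 56 of the 6095 genes measured (0.919%), and less than 25% in both libraries for 201 and 168.

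Several adhesion and venous genes were higher in mIgG1, whereas arterial and some barrier genes were lower. Of the leukocyte adhesion molecules, *Vcam1* had 623 CPM in mIgG1 and 386 CPM in Ctrl (0.69, 0.65 to 0.73), *Icam1* had 321 CPM in mIgG1 and 258 CPM in Ctrl (0.31, 0.26 to 0.37), and *Selp* had 106 CPM in mIgG1 and 57.7 CPM in Ctrl (0.88, 0.77 to 0.99). *Ackr1* stood at 2149 CPM in mIgG1 and 1311 CPM in Ctrl (0.71, 0.69 to 0.74) and *Vwf*, which encodes von Willebrand factor, at 542 CPM in mIgG1 and 237 CPM in Ctrl (1.19, 1.14 to 1.24). For each of the 5 genes *EC-Ang2* was the highest library, with 852 CPM of *Vcam1* and 3078 CPM of *Ackr1*. The list of 13 measured adhesion molecules had a median of 0.09, with 7 intervals above and 2 below 0. Of the 11 that met the limits, *Vcam1* and *Ackr1* were counted (3.99% of all genes). The 12 venous markers had a median of 0.29, with 7 intervals above and 4 below 0. Of the 11 that met the limits, 3 were counted as higher and 1 as lower (*Lcn2*, −1.24). Their summed level was 8292 CPM in mIgG1 and 9663 CPM in Ctrl. Arterial genes had a median of −0.57, with 13 of 16 intervals below 0 and none above, and 6 of 10 counted as lower (2.92% of all genes). *Cxcl12*, a chemokine that holds leukocytes at the abluminal side, had 392 CPM in mIgG1 and 798 CPM in Ctrl (−1.02, −1.06 to −0.98), and *Gkn3* had 42.1 CPM in mIgG1 and 98.6 CPM in Ctrl (−1.23).

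Of 20 barrier genes, 7 had an interval above and 12 below 0, with a median of −0.14. Of the 19 that met the limits, 3 were counted as lower (2.92% of all genes). *Mfsd2a*, a lipid transporter that suppresses transcytosis, had 109.7 CPM in mIgG1 and 239.9 CPM in Ctrl (−1.13, −1.2 to −1.06), with 125 CPM in Ang2 Ab and 49.4 CPM in *EC-Ang2*. The organic anion transporter *Slc22a8* had 120.2 CPM in mIgG1 and 269 CPM in Ctrl (−1.16, −1.23 to −1.09), and the cationic amino acid transporter *Slc7a1* had 133 CPM in mIgG1 and 245 CPM in Ctrl (−0.88). The glucose transporter *Slc2a1* was not counted (2877 CPM in mIgG1 and 4288 CPM in Ctrl, ratio −0.58), and the tight junction genes *Ocln* (−0.43) and *Tjp1* (0.53) differed in opposite directions. For the 3 counted transporters Ctrl was the highest library and *EC-Ang2* the lowest, with mIgG1 and then Ang2 Ab between.

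The endothelial class also differed in how many barcodes held venous transcripts, some of which are the genes above. Barcodes with 2 or more UMIs of *Vwf*, *Ackr1*, *Lrg1*, *Selp*, and *Nr2f2* at 2000 UMIs (venous-gene barcodes) made up 56.6% of mIgG1 (exact interval, 54.8% to 58.4%) and 32.2% of Ctrl ECs (30.7% to 33.8%), with 57.7% in Ang2 Ab and 71.3% in *EC-Ang2*. Inflammation can raise these genes outside veins, so that the share is one of transcripts and not of vessels; barcodes with 2 or more UMIs of 7 arterial genes made up 24.1% and 21.7%. *Vcam1*, which took no part in the split, had a ratio of 0.10 within venous-gene barcodes and 0.69 in the rest, the value of the whole class. *Ackr1*, *Selp*, and *Vwf* helped to define the split, so that their values within it are conditioned on it; the ratios were −0.0057, 0.16, and 0.58 within and 1.01, 0.49, and 1.53 in the rest. The arterial median was −0.27 within venous-gene barcodes and −0.01 in the rest, closer to 0 than in the whole class, and *Mfsd2a* had −0.77 and −0.72. Interferon-induced genes had medians of 1.01 and 0.64, the MHC class I pathway 0.83 and 0.68, and *Gbp4* 1.86 and 1.65. The interferon and class I differences were thus present in both parts of the class, whereas the *Vcam1* difference was small within venous-gene barcodes.

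**Figure D2:**
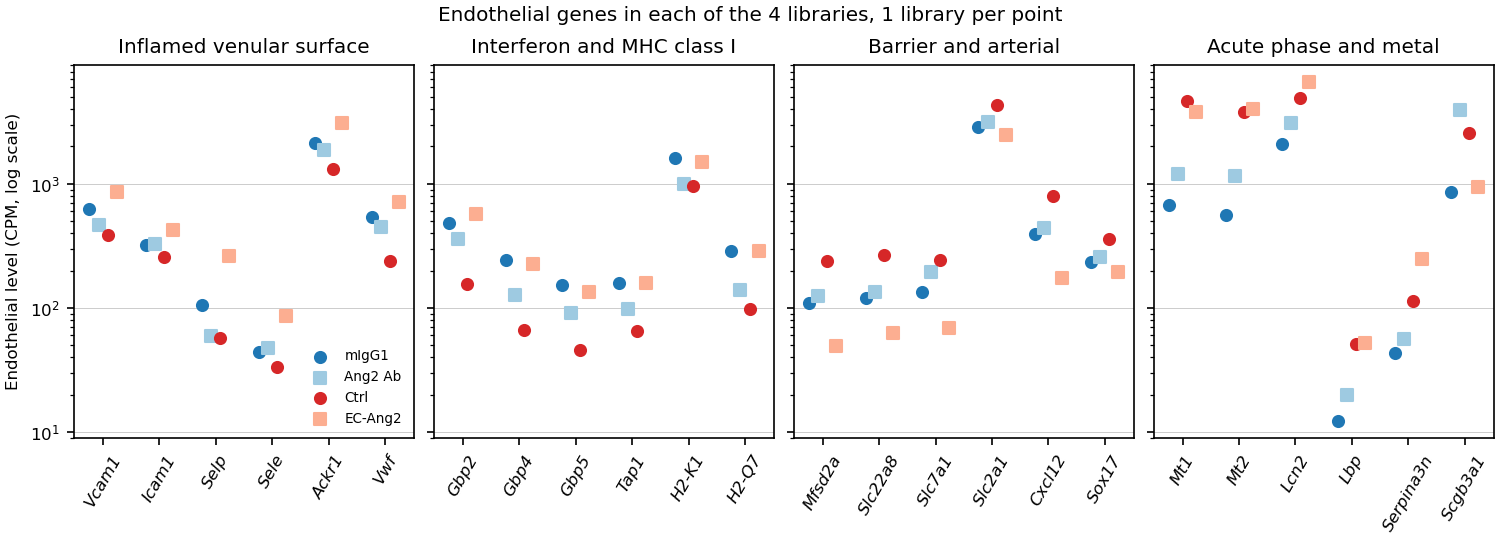
Level of 24 genes in the endothelial class (y axis, CPM, log scale) in each of the 4 libraries, 1 point per library, grouped as venular surface, interferon and MHC class I, barrier and arterial, and acute phase and metal genes. For *Gbp4*, mIgG1 (244 CPM) and *EC-Ang2* (225 CPM) lie together above Ctrl (66.3 CPM), whereas *Mt1* and *Mt2* are lowest in mIgG1, next lowest in Ang2 Ab, and higher in Ctrl and *EC-Ang2*.

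The metallothioneins *Mt1* and *Mt2*, small cysteine-rich proteins that bind zinc and copper, had the lowest ratios of the counted endothelial genes after the haemoglobin gene *Hbb-bs* and the neutrophil gene *S100a9*. *Mt1* had 681 CPM in mIgG1 and 4657 CPM in Ctrl (−2.77, −2.80 to −2.75), with 1195 CPM in Ang2 Ab and 3778 CPM in *EC-Ang2*, and *Mt2* had 556 CPM in mIgG1 and 3773 CPM in Ctrl (−2.76, −2.79 to −2.73), with 1166 CPM in Ang2 Ab and 3996 CPM in *EC-Ang2*. Both libraries of the blockade experiment were thus below both of the overexpression experiment. This split was common among the genes compared, with 13.7% of genes split this way in ECs and 17.6% the opposite way, 24.6% and 19.2% in the myeloid class, and 26.8% and 19.4% in T cells. Free RNA could give 6.63% and 2.03% of *Mt1* UMIs. Within venous-gene barcodes the ratios were −3.28 for *Mt1* and −3.19 for *Mt2*, and in the rest −2.27 and −2.88. In T cells *Mt1* (103 CPM in mIgG1 and 453 CPM in Ctrl, ratio −2.14) and *Mt2* (−2.19) were lower as well, but there free RNA could give 61.0% and 39.2% of *Mt1* UMIs.

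Metallothionein genes are switched on by the zinc sensor MTF1 at metal response elements and also by glucocorticoids, and the 250 bases before their RefSeq starts (GRCm38.p6, + strand, chr8:94178839-94179088 and chr8:94172368-94172617) are printed with the letters TGCACNC or TGCGCNC, searched on both strands, in capitals.
Mt1: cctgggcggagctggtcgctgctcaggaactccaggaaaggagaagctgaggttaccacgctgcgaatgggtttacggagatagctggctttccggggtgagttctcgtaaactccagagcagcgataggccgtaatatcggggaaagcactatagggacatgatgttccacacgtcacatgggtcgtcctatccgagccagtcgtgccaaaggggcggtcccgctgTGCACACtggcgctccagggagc
Mt2: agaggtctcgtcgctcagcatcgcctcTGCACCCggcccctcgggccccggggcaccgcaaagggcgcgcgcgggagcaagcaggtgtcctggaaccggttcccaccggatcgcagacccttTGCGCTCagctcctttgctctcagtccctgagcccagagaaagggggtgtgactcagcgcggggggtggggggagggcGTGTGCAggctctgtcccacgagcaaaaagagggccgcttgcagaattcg
*Mt1* held 1 match in this window, 23 bases before the start, and *Mt2* held 3, at 223, 128, and 50 bases. Letters past the RefSeq starts or further upstream were not searched, so that these are not counts for the whole promoters. Of all promoters of that length, 21.3% held at least 1 match and 5.19% held 2 or more.

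Acute phase genes had no common direction. Of 13 measured, 5 had an interval above and 6 below 0, with a median of 0.01. *Lcn2*, a siderophore-binding protein induced by IL-17 and IL-6, had 2079 CPM in mIgG1 and 4901 CPM in Ctrl (−1.24, −1.25 to −1.22), with 3078 CPM in Ang2 Ab and 6591 CPM in *EC-Ang2*. The protease inhibitor *Serpina3n* had 43.6 CPM in mIgG1 and 113 CPM in Ctrl (−1.37, −1.49 to −1.26), and *Lbp*, which presents bacterial lipopolysaccharide and is not on the list, had 12.3 CPM in mIgG1 and 51.2 CPM in Ctrl (−2.06, −2.27 to −1.86). For all 3 genes both blockade libraries lay below both overexpression libraries, as for the metallothioneins. *Lrg1* was level between the controls (1382 CPM in mIgG1 and 1369 CPM in Ctrl, ratio 0.01, −0.01 to 0.04), and haptoglobin, *Hp*, stood at 19.4 against 8.42 CPM (1.2), in too few barcodes to be counted. Free RNA could give 78.0% of the *Hp* UMIs in mIgG1 and 96.5% in Ctrl, and 64.1% and all of those of *Saa3*, the member with the highest ratio. With free RNA subtracted the list median was −0.19. *Scgb3a1*, a secretoglobin, was lower in mIgG1 than in Ctrl (864 CPM in mIgG1 and 2547 CPM in Ctrl, ratio −1.56), yet its other values were 3913 CPM in Ang2 Ab and 943 CPM in *EC-Ang2*.

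The Ang2 pathway itself differed little between the controls. *Angpt2*, the gene of Ang2, had 49.1 CPM in mIgG1 and 66 CPM in Ctrl (−0.43, −0.55 to −0.31), against 306 CPM in Ang2 Ab and 1090.4 CPM in *EC-Ang2*. *Tek*, the gene of Tie2, stood at 186 CPM in mIgG1 and 164 CPM in Ctrl (0.18, 0.11 to 0.25), and *Tie1* at 175 CPM in mIgG1 and 168 CPM in Ctrl (0.05, −0.02 to 0.12). *Itga5*, the integrin chain that Ang2 can bind, was counted as higher (39 CPM in mIgG1 and 20.5 CPM in Ctrl, ratio 0.93), and *Klf2*, a shear-induced transcription factor, was lower without being counted (2514 CPM in mIgG1 and 3549 CPM in Ctrl, ratio −0.50). The tip cell gene *Trp53i11* had 53.8 CPM in mIgG1 and 14.4 CPM in Ctrl (1.90, 1.71 to 2.09), and *Apln* had 8.49 and 3.59 CPM. Angiogenesis genes had a median of 0.27, with 11 of 17 intervals above and 6 below 0. The 10 angiopoietin and Tie pathway genes had one of 0.18, with 1 counted as higher (3.99% of all genes). Wnt and TGF-β target genes had a median of −0.29, with 5 of 20 above and 13 below. In that list the BMP target *Id1* was lower (551 CPM in mIgG1 and 928 CPM in Ctrl, ratio −0.75). Glycolysis and hypoxia genes had a median of 0.01.

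Genes that respond to tissue dissociation were lower in mIgG1 ECs, with a median of −0.25 and 18 of 22 intervals below 0. Of the 22, 3 were counted as lower (2.92% of all genes), namely *Fos* (1652 CPM in mIgG1 and 2489 CPM in Ctrl, ratio −0.59), *Hspa1a* (−0.64), and *Hsp90aa1* (−0.76). Cycling genes had a median of 1.5 over 11 measured, with 10 intervals above 0, and *Top2a* had 22.4 CPM in mIgG1 and 6.01 CPM in Ctrl. They came from few barcodes, since 1.35% of mIgG1 and 0.412% of Ctrl ECs held 3 or more of 12 cycling genes at 2000 UMIs, and outside venous-gene barcodes the median was −0.046. Mural cell markers had a median of −0.24 over 10 measured, and summed to 728 CPM in mIgG1 and 879 CPM in Ctrl.

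Haemoglobin RNA was nearly confined to a few barcodes of the other libraries. The endothelial class held 40 haemoglobin UMIs in mIgG1 and 158355 in Ctrl, against 17218 in Ang2 Ab and 36624 in *EC-Ang2*, and in Ctrl 99.0% of them lay in 50 barcodes. Barcodes with 10 or more haemoglobin UMIs numbered 1 in mIgG1, 71 in Ctrl, 13 in Ang2 Ab, and 17 in *EC-Ang2*. Without them the counts in ECs were 233 higher and 194 lower genes, and *Mt1* had a ratio of −2.79. *Nnt*, of which C57BL/6J mice carry an internal deletion, had 14.2 CPM in mIgG1 and 7.55 CPM in Ctrl in ECs (0.91, 0.61 to 1.21), with 14.6 CPM in Ang2 Ab and 9.95 CPM in *EC-Ang2*, and 13.7 CPM in mIgG1 and 7.28 CPM in Ctrl in the myeloid class (0.91, 0.61 to 1.22). The 3′ tags need not fall in the deleted part of *Nnt*, so that this does not check the label. *Xist*, expressed by female cells, was close to level (893 CPM in mIgG1 and 924 CPM in Ctrl), and the Y-linked *Ddx3y* had 1 UMI in the classes of mIgG1 and none in those of Ctrl. Over all barcodes, in or out of a class, the files held 55 *Ddx3y* UMIs in mIgG1 and 0 in Ctrl, with 67 and 1 in their treated libraries.

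The myeloid class had another make-up in each control. Microglial transcripts (2 or more UMIs of *P2ry12*, *Tmem119*, *Olfml3*, *Fcrls*, *Gpr34*, *Siglech*, *Sall1*, and *P2ry13* at 2000 UMIs) were present in 324 of 2646 mIgG1 barcodes, or 12.2% (exact interval, 11% to 13.6%), and in 1149 of 2281 Ctrl barcodes, or 50.4% (48.3% to 52.4%). The difference was −38.1 percentage points, with an approximate interval for counting error of −40.5 to −35.7. The shares were 15.0% in Ang2 Ab and 6.64% in *EC-Ang2*, and 0.165% and 0.852% in mIgG1 and Ctrl ECs, which should lack these genes. Without thinning, the shares were 33.3% in mIgG1 and 60.1% in Ctrl. At 2000 UMIs, 4 or more microglial UMIs were held by 116 mIgG1 and 975 Ctrl barcodes, and 10 or more by 8 and 529. The class was then divided by rules chosen after seeing the data. Its microglial-gene barcodes are thus not matched in microglial RNA between the libraries, and ratios within them are not those of like cells. Neutrophil-gene barcodes (10 or more UMIs of 6 neutrophil genes) numbered 51 in mIgG1 and 327 in Ctrl, microglial-gene barcodes outside them 318 and 1050, and monocyte-gene barcodes (2 or more UMIs of 8 genes such as *Ly6c2*, *Ccr2*, and *Chil3*, with fewer than 2 microglial UMIs) 1936 and 817. Another 341 and 87 met none of these rules. Monocyte-gene barcodes thus made up 73.2% of mIgG1 and 35.8% of Ctrl myeloid barcodes. The 8 genes are not specific to monocytes. At 2000 UMIs, 2 or more of their UMIs were also held by 43.5% of mIgG1 and 52.4% of Ctrl T barcodes.

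Homeostatic microglia genes were lower in the mIgG1 myeloid class throughout. All 16 had an interval below 0, with a median of −2.50, and 15 of 15 that met the limits were counted as lower (17.5% of all genes). *P2ry12*, the purinergic receptor that guides microglial processes, had 29.8 CPM in mIgG1 and 258 CPM in Ctrl (−3.11, −3.23 to −3.00), and *Tmem119* had 73.1 CPM in mIgG1 and 422 CPM in Ctrl (−2.53). *Fcrls* had 39.9 CPM in mIgG1 and 512 CPM in Ctrl (−3.68) and the fructose transporter *Slc2a5* 1.81 CPM in mIgG1 and 32.7 CPM in Ctrl (−4.17). Within microglial-gene barcodes the median was −1.40, but 8 of the 16 genes, *P2ry12* and *Tmem119* among them, define the split, so that their values within it are conditioned on it. The other 8 had a median of −1.28, all with intervals below 0. Within the split *P2ry12* had 139 CPM in mIgG1 and 483 CPM in Ctrl (−1.80), *Tmem119* 312 CPM in mIgG1 and 808 CPM in Ctrl (−1.37), and *Cx3cr1*, the fractalkine receptor, 427 CPM in mIgG1 and 621 CPM in Ctrl (−0.54). The mIgG1 microglial-gene barcodes also held more monocyte RNA, with *Ly6c2* at 509 CPM in mIgG1 and 274 CPM in Ctrl and *Chil3* at 648 CPM in mIgG1 and 139 CPM in Ctrl, and 14 monocyte genes had a median of 1.05 there. Whether these are microglia with monocyte transcripts, recruited cells with microglial transcripts, or droplets with both was not tested.

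Genes of a list of lipid and disease-associated genes were mostly higher in mIgG1. Of 22 measured, 18 had an interval above and 4 below 0, with a median of 0.92, and 10 of 17 were counted as higher (6.47% of all genes). *Apoe*, the lipid carrier of the central nervous system, had 25613 CPM in mIgG1 and 3192 CPM in Ctrl (3.00, 2.99 to 3.02), with 7652 CPM in Ang2 Ab and 5609 CPM in *EC-Ang2*. Free RNA could give 2.38% of its myeloid UMIs in mIgG1 and 4.62% in Ctrl. A UMI of it was held by 99.9% of mIgG1 and 72.8% of Ctrl myeloid barcodes. These are not shares of expressing cells, since 99.4% of mIgG1 and 40.3% of Ctrl T barcodes also held an *Apoe* UMI. *Gpnmb*, a glycoprotein of lipid-laden macrophages, had 646 CPM in mIgG1 and 34.7 CPM in Ctrl (4.22, 4.10 to 4.34), with 254 CPM in Ang2 Ab and 331 CPM in *EC-Ang2*. The fatty acid–binding protein *Fabp5* had 1337 CPM in mIgG1 and 123 CPM in Ctrl (3.45, 3.38 to 3.51) and *Abca1*, which exports cholesterol, 116 CPM in mIgG1 and 27.2 CPM in Ctrl (2.09, 1.95 to 2.24). *Apoe* and *Gpnmb* were highest in mIgG1 and lowest in Ctrl among the 4 libraries. Not all members followed, since *Trem2* had 604 CPM in mIgG1 and 546 CPM in Ctrl (0.14), *Lpl* 19 CPM in mIgG1 and 23.2 CPM in Ctrl (−0.29), and *Cd9* 1004 CPM in mIgG1 and 1050.2 CPM in Ctrl (−0.07).

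The list had a median of 1.40 within microglial-gene and 1.47 within monocyte-gene barcodes. *Apoe* stood at 25383 CPM in mIgG1 and 2868 CPM in Ctrl in the former (3.15) and at 25650.2 CPM in mIgG1 and 3567 CPM in Ctrl in the latter (2.85), and *Gpnmb* had ratios of 4.78 and 4.22. *Spp1*, osteopontin, had ratios of 2.32 and 0.69. Of the 10 highest genes of the whole class, 7 were outside the list, among them *Ctsk*, a lysosomal protease (26.4 CPM in mIgG1 and 1.63 CPM in Ctrl, ratio 4.01), *Ms4a7*, a membrane protein of recruited macrophages (328 CPM in mIgG1 and 37.1 CPM in Ctrl, ratio 3.15), and *Acp5*, an acid phosphatase (391 CPM in mIgG1 and 59.4 CPM in Ctrl, ratio 2.72). The other 4 were *Fcor* (2.98), *Osbpl3* (2.92), the creatine transporter *Slc6a8* (2.76), and *Sash1* (2.67). *Lyz2*, lysozyme, which marks the class, was itself higher (23019.5 CPM in mIgG1 and 5617 CPM in Ctrl, ratio 2.03).

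Inflammatory cytokines and chemokines were lower in mIgG1. Of 22 measured, 17 had an interval below and 4 above 0, with a median of −1.84. Of the 16 that met the limits, 12 were counted as lower (17.5% of all genes) and 3 as higher (6.47% of all genes). *Tnf* had 34.5 CPM in mIgG1 and 535 CPM in Ctrl (−3.95, −4.06 to −3.85), with 113 CPM in Ang2 Ab and 47.1 CPM in *EC-Ang2*. The monocyte attractants *Ccl12* (117 CPM in mIgG1 and 1587 CPM in Ctrl, ratio −3.77) and *Ccl2* (112 CPM in mIgG1 and 610.3 CPM in Ctrl, ratio −2.44) and the chemokines *Ccl3* (241 CPM in mIgG1 and 1863 CPM in Ctrl, ratio −2.95) and *Ccl4* (602 CPM in mIgG1 and 3843 CPM in Ctrl, ratio −2.68) showed the same direction. For *Tnf* the Ctrl value stood far above those of all 3 other libraries. *Il1b* (1540.0 CPM in mIgG1 and 2413 CPM in Ctrl, ratio −0.65) and *Nos2*, the inducible nitric oxide synthase (46.1 CPM in mIgG1 and 135 CPM in Ctrl, ratio −1.55), were also lower, and the acute phase gene *Saa3* was higher (1233 CPM in mIgG1 and 340.3 CPM in Ctrl, ratio 1.86). Within microglial-gene barcodes the median was −1.03, with *Tnf* at 133 CPM in mIgG1 and 927 CPM in Ctrl (−2.80) and *Ccl4* at 2799.6 CPM in mIgG1 and 6241 CPM in Ctrl (−1.16). Within monocyte-gene barcodes it was −1.27, with *Ccl2* at 90.5 CPM in mIgG1 and 455 CPM in Ctrl (−2.33) and *Nos2* at 52.3 CPM in mIgG1 and 237 CPM in Ctrl (−2.18). Dissociation genes were lower in the same barcodes, with medians of −1.28 in microglial-gene and −0.44 in monocyte-gene barcodes and with *Jun* at 199.6 CPM in mIgG1 and 1284 CPM in Ctrl in the former (−2.69). Their part in the cytokine values was not tested.

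Interferon-induced genes, higher in mIgG1 ECs, were lower in mIgG1 myeloid barcodes. All 24 measured had an interval below 0, with a median of −1.62, and 20 of 23 were counted as lower (17.5% of all genes). *Gbp2* had 238 CPM in mIgG1 and 873 CPM in Ctrl (−1.88, −1.92 to −1.83), *Igtp* 49.3 CPM in mIgG1 and 169 CPM in Ctrl (−1.77), *Irgm1* 51.8 CPM in mIgG1 and 254 CPM in Ctrl (−2.29), and *Ifit1* 23.2 CPM in mIgG1 and 166 CPM in Ctrl (−2.84, −2.98 to −2.70). Unlike in ECs, targets known best for type I interferon were as low as those of IFN-γ, with *Isg15* at 478 CPM in mIgG1 and 1527 CPM in Ctrl (−1.68, −1.71 to −1.64). In monocyte-gene barcodes 24 of 24 intervals lay below 0, with a median of −1.76, and *Isg15* had 512 CPM in mIgG1 and 2043 CPM in Ctrl (−2.00). In microglial-gene barcodes 18 lay below and 2 above 0, with a median of −0.67, and *Irf7* was level (0.14, −0.00 to 0.27). In T cells 11 of 17 measured genes had an interval below and 1 above 0, with a median of −0.71, and 11 of 15 were counted as lower (9.55% of all genes). There *Isg15* had 333 CPM in mIgG1 and 799 CPM in Ctrl (−1.26, −1.42 to −1.11) and *Irgm1* 39.6 CPM in mIgG1 and 106 CPM in Ctrl (−1.42, −1.88 to −0.97), whereas *Gbp4* (−0.13, −0.54 to 0.28) did not differ beyond counting error. The difference in direction between classes was not tested.

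MHC class I genes were not lower to a like degree in the whole myeloid class, with a median of −0.21 over 17 and *Tap1* at 172 CPM in mIgG1 and 296 CPM in Ctrl (−0.78). In monocyte-gene barcodes their median was −0.51, with 15 of 17 intervals below 0 and none above. In microglial-gene barcodes it was 0.18, with 10 above and 3 below 0. MHC class II genes were higher in the whole class, with 6 of 9 intervals above 0, a median of 0.34, and *Cd74* at 17115 CPM in mIgG1 and 9254 CPM in Ctrl (0.89). In microglial-gene barcodes *Cd74* had 12298 CPM in mIgG1 and 4056 CPM in Ctrl (1.60) and *H2-Aa* 2970.4 CPM in mIgG1 and 1029 CPM in Ctrl (1.53). In monocyte-gene barcodes, in which *Cd74* was high in both libraries and whose share was larger in mIgG1, it had 18139.9 CPM in mIgG1 and 16872 CPM in Ctrl (0.10) and the list a median of 0.03. Neutrophil-gene barcodes had a list median of 2.11, with 6 of 6 intervals above 0, and *Cd74* at 9146 CPM in mIgG1 and 2266 CPM in Ctrl (2.01). These barcodes also held more *Apoe* (9454 CPM in mIgG1 and 2290 CPM in Ctrl) and *Ly6c2* (1774 CPM in mIgG1 and 614 CPM in Ctrl) in mIgG1. They held less *S100a8* (23364 CPM in mIgG1 and 43045 CPM in Ctrl), and *C1qa* was close to level (2861 CPM in mIgG1 and 2966 CPM in Ctrl). Whether their class II RNA came from neutrophils or from droplets that also held macrophage RNA was not tested. *C1qa*, of the first complement component, was lower in the whole class (2581 CPM in mIgG1 and 4306 CPM in Ctrl, ratio −0.74), close to level in microglial-gene barcodes (6942 CPM in mIgG1 and 7606 CPM in Ctrl, ratio −0.13), and higher in monocyte-gene barcodes (1697 CPM in mIgG1 and 626 CPM in Ctrl, ratio 1.44). In the latter *Trem2* was higher too (539.9 CPM in mIgG1 and 152 CPM in Ctrl, ratio 1.83).

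Monocyte genes differed in both directions. Of 15 measured, 8 had an interval above and 7 below 0, with a median of 0.16. *Plac8* had 883 CPM in mIgG1 and 3644 CPM in Ctrl (−2.04), and within monocyte-gene barcodes 1126 CPM in mIgG1 and 7297 CPM in Ctrl (−2.70). *Ly6c2*, whose product marks newly arrived monocytes, had 1300.2 CPM in mIgG1 and 1898 CPM in Ctrl there (−0.55), whereas *Chil3*, a chitinase-like protein, had 2504 CPM in mIgG1 and 934 CPM in Ctrl (1.42). All 3 genes help to define monocyte-gene barcodes, so that their values there are conditioned on the split. *Fn1*, fibronectin, was higher in the whole class (652 CPM in mIgG1 and 181 CPM in Ctrl, ratio 1.85). *Ccl24*, an eosinophil attractant of alternatively activated macrophages, was nearly missing from mIgG1 alone, at 5.57 CPM in mIgG1 and 206 CPM in Ctrl in monocyte-gene barcodes and 371 CPM in Ang2 Ab and 171 CPM in *EC-Ang2*, and was held by too few barcodes to be counted. Neutrophil genes had a median of −3.97, with 15 of 16 intervals below 0, and *S100a9* had 162 CPM in mIgG1 and 3398 CPM in Ctrl (−4.39). Neutrophil-gene barcodes numbered 51 and 327, but any with fewer than 2000 UMIs were left out, so that these are not counts of neutrophils. Within these barcodes the list, which holds the genes that define them, had a median of −1.34, with 15 of 16 intervals below 0. It had −0.77 in microglial-gene and −0.81 in monocyte-gene barcodes, over 9 genes each. Without neutrophil-gene barcodes, 362 genes were higher and 1110 lower in the myeloid class. Cycling genes had a median of −2.33 over 11, all with intervals below 0. Barcodes with 3 or more cycling genes made up 1.02% of mIgG1 and 10.2% of Ctrl myeloid barcodes, with 2.58% in Ang2 Ab and 1.71% in *EC-Ang2*. The median was −2.05 in microglial-gene and 0.042 in monocyte-gene barcodes.

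**Figure D3:**
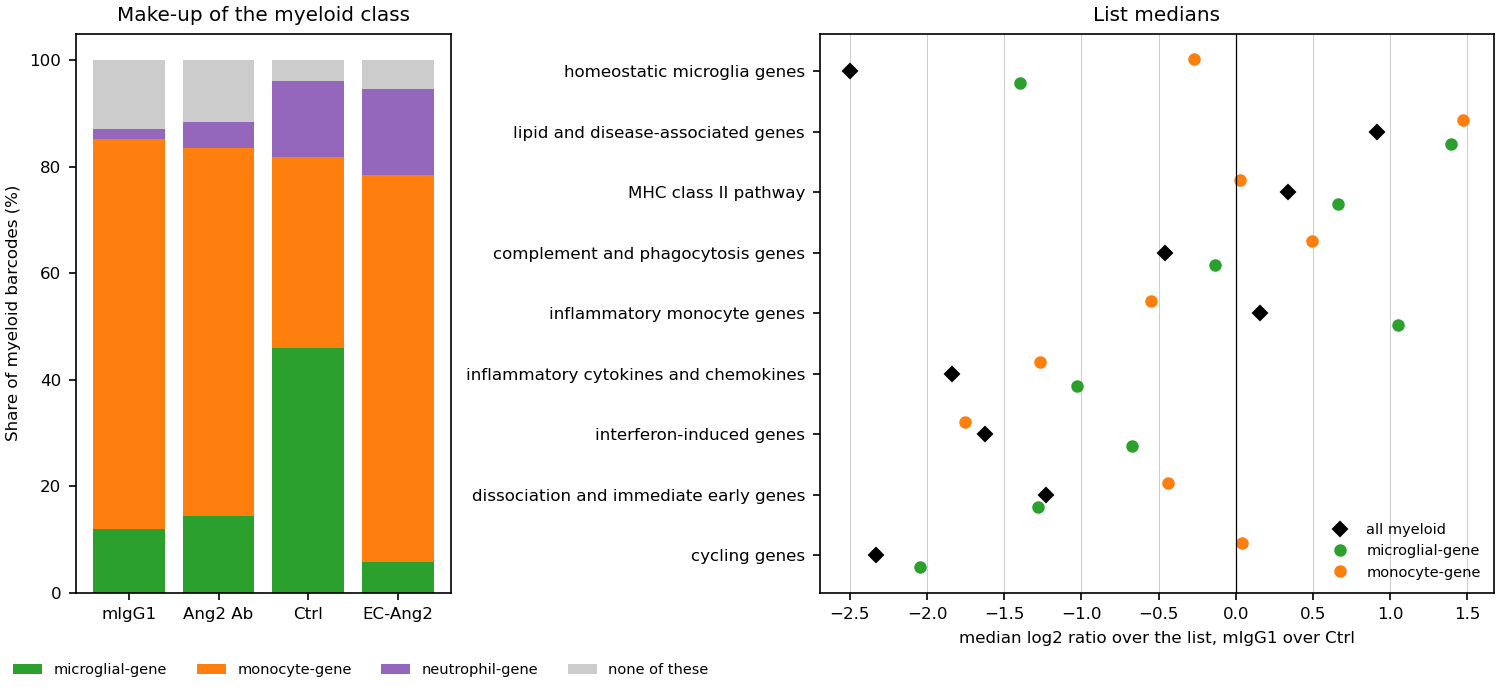
Left, share of myeloid barcodes (y axis, %) with neutrophil, microglial, or monocyte transcripts in each of the 4 libraries. Right, median log2 ratio of mIgG1 over Ctrl (x axis) of 9 gene lists in all myeloid barcodes (diamonds) and in microglial-gene and monocyte-gene barcodes (circles). Microglial-gene barcodes make up 12.0% in mIgG1 and 46.0% in Ctrl. The lipid and disease-associated list is higher in both subsets, while the cytokine and interferon lists are lower in both.

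T cells made up 340 of 2986 immune barcodes (T and myeloid) in mIgG1, or 11.4% (exact interval, 10.3% to 12.6%), and 191 of 2472 in Ctrl, or 7.73% (6.70% to 8.85%). The difference was 3.66 percentage points (approximate interval, 2.07 to 5.23). The shares were 9% in Ang2 Ab and 15.4% in *EC-Ang2*. With a minimum of 4000 UMIs the difference was gone, at 6.31% and 6.33%, so that it rests on T barcodes with few UMIs. Cd8-gene barcodes (2 or more UMIs of *Cd8a* and *Cd8b1* at 2000 UMIs) were 3.24% of mIgG1 (1.63% to 5.71%) and 9.95% of Ctrl T cells (6.10% to 15.1%). *Cd4* itself had 232 CPM in mIgG1 and 174 CPM in Ctrl (0.42, 0.16 to 0.68). Cycling barcodes made up 7.35% (4.81% to 10.7%) and 3.14% (1.16% to 6.71%), intervals that overlap, and cycling genes had a median of 2.47 over 9 measured. Only 2 of the 9 met the detection limits, and Ctrl T cells held few of their UMIs, such as 6 of *Birc5* and 8 of *Mki67*.

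The genes with the highest ratios in T cells that free RNA could not give were signalling and chemokine genes. *Nrgn*, neurogranin, a calmodulin-binding protein best known from neurons, had 513 CPM in mIgG1 and 4 CPM in Ctrl (7.0, 5.64 to 8.88), with 206 CPM in Ang2 Ab and 17.2 CPM in *EC-Ang2*. It was held by 102 of 340 mIgG1 and by 3 of 191 Ctrl barcodes. *Tff1*, a trefoil factor best known from stomach, was held by 52 mIgG1 and 2 Ctrl barcodes (134 CPM in mIgG1 and 2 CPM in Ctrl), with 63 CPM in Ang2 Ab and 71.5 CPM in *EC-Ang2*. Free RNA could give 0.302% of the mIgG1 *Nrgn* UMIs and 0.433% of those of *Tff1*. The chemokine *Ccl1*, a ligand of CCR8, had 1217 CPM in mIgG1 and 188 CPM in Ctrl (2.69, 2.48 to 2.92) in 54 and 5 barcodes, and 5 barcodes held 47.6% of its mIgG1 UMIs. *Lag3*, an inhibitory receptor of activated T cells, had 277 CPM in mIgG1 and 57 CPM in Ctrl (2.28, 1.88 to 2.70), with 166 CPM in Ang2 Ab and 62.8 CPM in *EC-Ang2*, and was held by 34.4% and 13.6% of barcodes. *Tnfsf11*, the gene of RANKL, had 416 CPM in mIgG1 and 115 CPM in Ctrl (1.86, 1.57 to 2.15), held by 47.4% and 19.4%. The pro-apoptotic gene *Bcl2l11* (42.5 CPM in mIgG1 and 8 CPM in Ctrl, ratio 2.41), the phosphatase *Dusp4* (2.18), *Pdcd1*, the gene of PD-1 (111 CPM in mIgG1 and 65 CPM in Ctrl, ratio 0.77), and the antigen receptor–induced *Nr4a1* (344 CPM in mIgG1 and 185 CPM in Ctrl, ratio 0.89) were also counted as higher. The list of 14 activation genes had a median of 0.18, with 6 intervals above and 5 below 0, since *Tnfrsf9* was lower (355 CPM in mIgG1 and 625 CPM in Ctrl, ratio −0.82).

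Effector cytokines went in both directions. *Il17a* had 629 CPM in mIgG1 and 1729.6 CPM in Ctrl (−1.46, −1.57 to −1.35), with 646 CPM in Ang2 Ab and 1227 CPM in *EC-Ang2*, but it was held by 55 and 44 barcodes, of which 5 carried 55.8% and 72.9% of its UMIs. *Il17f* (6 and 16 barcodes, or 1.76% and 8.38%) and *Il22* (7 and 9 barcodes, or 2.06% and 4.71%) were lower, at ratios of −3.26 and −2.21, on fewer barcodes still. *Csf2*, the gene of GM-CSF, which is needed for EAE, was higher at 271 CPM in mIgG1 and 144 CPM in Ctrl (0.91, 0.64 to 1.19) and was held by 20.9% and 8.90% of barcodes, of which 5 carried 43.1% and 77.1% of its UMIs. *Ifng* was lower by level (228 CPM in mIgG1 and 415 CPM in Ctrl, ratio −0.87) but held by more barcodes in mIgG1 (25% against 16.2%), and 5 Ctrl barcodes carried 76.9% of its Ctrl UMIs. No direction can be read from it. Th17 genes had a median of 0.09 over 9 and Th1 genes one of −0.11 over 12. Of the regulatory T cell genes, *Foxp3* had 18 CPM in mIgG1 and 29 CPM in Ctrl (−0.68, −1.46 to 0.10), and the list had a median of −0.39 over 7 measured.

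Cytotoxic genes differed in both directions. *Gzmb*, granzyme B, had 145 CPM in mIgG1 and 592 CPM in Ctrl (−2.03, −2.25 to −1.81), with 639.9 CPM in Ang2 Ab and 193 CPM in *EC-Ang2*, and was held by 10% and 28.3% of barcodes, and *Cd8b1* had 47.7 CPM in mIgG1 and 151 CPM in Ctrl (−1.66). The cytotoxic list had a median of −0.46 over 10, and one of 0.32 over 9 without Cd8-gene barcodes, so that no direction of the list holds under both. *Nkg7* was higher in all T barcodes (743 CPM in mIgG1 and 485 CPM in Ctrl, ratio 0.62). *Ccr2*, the receptor of CCL2 and CCL12, had 125 CPM in mIgG1 and 298 CPM in Ctrl (−1.25, −1.51 to −0.99), and was held by 36.5% and 61.3% of barcodes. Of 13 migration receptors, 7 had an interval below and 1 above 0, with a median of −0.19. Glycolysis genes had a median of −0.63, with 10 of 17 counted as lower (9.55% of all genes). Among them were *Ldha* (1196 CPM in mIgG1 and 2029 CPM in Ctrl, ratio −0.76) and *Pgam1* (239 CPM in mIgG1 and 446 CPM in Ctrl, ratio −0.90). The T cell receptor complex had a median of −0.06 over 12, with none counted in either direction (18.1% of all genes). Myeloid RNA moved with the T class, where *Apoe* (1194 CPM in mIgG1 and 173 CPM in Ctrl, ratio 2.79), *Lyz2* (2.95), and *Spp1* (3.04) were counted as higher and free RNA could give all of their UMIs.

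**Figure D4:**
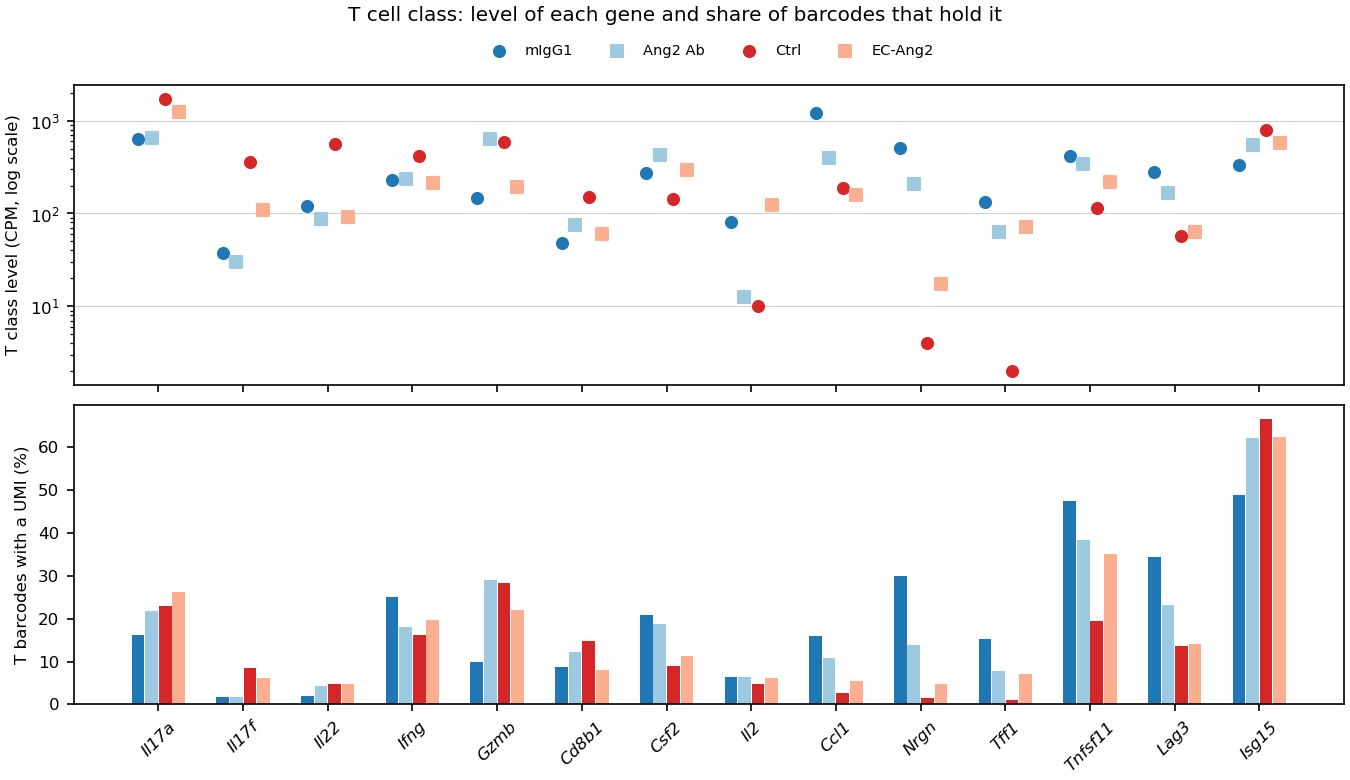
Level in the T cell class (upper panel, CPM, log scale) and share of T barcodes with at least 1 UMI (lower panel, %) for 14 genes in each of the 4 libraries, 1 value per library. *Il17f*, *Il22*, and *Il2* are held by few barcodes in every library, whereas *Nrgn*, *Tnfsf11*, and *Lag3* are held by 30.0%, 47.4%, and 34.4% of mIgG1 barcodes and by 1.57%, 19.4%, and 13.6% of Ctrl barcodes.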

How the data were processed

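Sorted CD45+ and CD31+ cells of EAE SCs were measured in 4 libraries, 1 per condition. The authors deposited UMI counts per gene and barcode, made with Cell Ranger 2.1.1 and the mm10 build, and their own analysis used Seurat 2.3.4, per the submitters' processing notes. These counts, not normalized, were read as deposited with Python 3.11.15, numpy 2.4.6, scipy 1.17.1, pandas 2.3.3, and scanpy 1.11.5. Barcodes of at least 2000 UMIs and less than 10% mitochondrial UMIs were classed by the summed UMIs named in the report, and UMIs were summed per class and library. With 1 library per condition no p-value was computed. Ratios carry exact conditional Poisson intervals and shares exact Clopper-Pearson intervals at 95%, which cover counting error only. Intervals of differences between shares combine the 2 Clopper-Pearson intervals and are approximate. The ratio interval was tested on simulated Poisson counts, which hold no variation among barcodes. Genes were counted at 1.5-fold, with a UMI in 10% of barcodes of 1 library and 50 UMIs together; the genes that define the classes were left out. List medians use members with 50 or more UMIs. Named genes were the 10 highest and 10 lowest counted genes of a class, up to 4 members of each list with the largest ratios, and fixed genes such as *Angpt2*; other genes named for their roles were chosen after their values were seen. Free RNA was estimated from the profile of barcodes with at most 100 UMIs, scaled for ECs on 6 immune genes, for the myeloid class on 8 endothelial genes, and for T cells on both; such an estimate can pass 100% of a gene's UMIs. Barcodes that reached both the endothelial and the myeloid sum numbered 429 in mIgG1 and 315 in Ctrl. The class rule kept these out of the myeloid class. It did not keep all of them out of the endothelial class by design, since the endothelial rule limited only *Ptprc*, *Laptm5*, and *Coro1a*. How many stayed there was not counted. Removing the barcodes of highest Scrublet score was an alternative, since Scrublet's own threshold marked 0.0453% in Ctrl. The members, gene lists, and rules were chosen with earlier results of these data known. Promoter sequences came from RefSeq on GRCm38.p6. Some genes are not reported here by name, although they count in the totals and list medians.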

Additional observations from a re-analysis of the deposited data

Results flagged for a closer look

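Cycling genes had a median log2 ratio of mIgG1 over Ctrl of 1.5 in ECs and 2.47 in T cells but of −2.33 in the myeloid class. They were singled out because nearly all members lay above 0 in ECs and T cells and below 0 in the myeloid class. Interferon-induced genes had a median of 0.65 in ECs and −1.62 in the myeloid class, and were singled out for the same reason. In both cases the difference between the classes was not tested, since each class comes from the same single library per condition. The T cell median of the cycling genes also rests on few Ctrl UMIs, such as 6 of *Birc5* and 8 of *Mki67*. Only 2 of its 9 genes met the detection limits.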

How the results depend on the processing

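No paired analysis was possible because each condition had 1 library, and for the same reason no library could be left out. Alternatives that split a class (venous-gene, haemoglobin, microglial-gene, monocyte-gene, neutrophil-gene, or Cd8-gene barcodes) and the minimum of 3 measured members per list median were chosen after seeing the data. Over all alternatives, 113 of the main counts and shares stayed within their limits, 27 moved, and 1 reversed; of single genes and list medians, 2784 values stayed, 896 moved, and 6 reversed. In ECs the counts of 243 higher and 178 lower genes became 99 and 93 when barcodes were thinned to 2000 UMIs, 72 and 42 at 2-fold, and 897 and 588 without a detection limit, and 105 were lower without venous-gene barcodes. In the myeloid class 385 and 1040 became 198 and 465, 134 and 485, and 803 and 2437 under the same settings, with 618 higher in microglial-gene and 677 lower in monocyte-gene barcodes. In T cells 411 and 460 became 223 and 294 when thinned and 118 and 93 at 2-fold. Fewer or more genes met the limits under these settings by construction. The 3 T cell lists with a median above 0 became 5 with Scrublet doublets removed, 1 when thinned, and 5 without Cd8-gene barcodes. The T cell difference of 3.66 points reversed to −0.019 at 4000 UMIs and was 1.95 with cycling barcodes removed, and the microglial difference of −38.1 points was −34.3 at 4000 UMIs, −30.8 with cycling barcodes removed, −31.6 at 1 or more UMIs, and −26.9 without thinning. Only values past 1.5-fold were counted as reversed, and 27 list medians and 27 genes under that size also changed sign, among them the cytotoxic median in T cells (0.32 without Cd8-gene barcodes). Other values that reversed were the cycling median in ECs (−0.046 without venous-gene barcodes) and in the myeloid class (0.042 in monocyte-gene barcodes), the glial and neuronal median in ECs (0.12 with free RNA subtracted), *Ackr1* in ECs (−0.0057 in venous-gene barcodes only), and in the myeloid class *C1qc* (1.44 in monocyte-gene barcodes) and *Mbp* (0.64 with free RNA subtracted); the cause was not tested.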

Other observations

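*Gm10076*, annotated as a predicted gene and a likely copy of a ribosomal protein gene whose reads cannot be told apart from those of its parent, stood at 1274 CPM in mIgG1 and 388 CPM in Ctrl in ECs (1.71, 1.68 to 1.75), with 1342 CPM in Ang2 Ab and 866 CPM in *EC-Ang2*. It was higher in both libraries of the blockade experiment than in both of the overexpression experiment.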
